A study of Mus musculus with 6 samples.

Results

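The RNA polymerases and general transcription factors are described here as the 76 protein-coding genes of the expression table whose names begin with Polr1, Polr2, Polr3, Gtf2, Gtf3 or Taf and a digit, together with Tbp and Tbpl2. They are 76 of 53023 genes and of 21963 protein-coding genes in the table. The names alone chose them, and no measured value was used. They comprise 5 subunits named for RNA polymerase I, 13 for RNA polymerase II and 10 for RNA polymerase III, 13 subunits of TFIIA, TFIIB, TFIIE, TFIIF and TFIIH, 3 genes of the TFII-I family, 1 of TFIIIA, 6 of TFIIIC, 4 TAFs of RNA polymerase I, TBP and TBPL2, 18 TAFs of TFIID with their paralogues, and TAF15.

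RNA-seq was carried out on two-cell mouse embryos of the ICR strain at 28 hours post-insemination (hpi), after the embryonic genome has begun to be transcribed. There were 3 groups of 2 libraries each, and every library was made from 5 pooled embryos whose zona pellucida had been removed. PIASy-WT embryos had received synthetic mRNA for wild-type PIASy, the SUMO E3 ligase encoded by Pias4, at 100 ng/µl between 1.5 and 3 hpi. PIASy-Mut embryos had received the same dose of mRNA for PIASy-C335F, in which a cysteine of the RING finger domain is replaced, and non-injection embryos had received nothing, so that group does not control for the injection itself. At 9 hpi, those of the injected embryos that showed fluorescence were kept. The study counts its replicates as biological, but neither it nor the labels say whether the libraries of a group came from separate collections, so p-values measure the spread between these libraries. Because embryos were pooled, fewer embryos expressing a gene and less RNA per embryo cannot be told apart. Levels are FPKM, the fragments counted for a gene scaled by its length and by the counted total, and are shares of a library. CPM is the same measure without the scaling by length. Depth ranged from 871663 to 1363928 counted fragments, at which 3 fragments, taken as the limit of detection, correspond to 2.20 to 3.44 CPM.

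The injected gene served as a check of the labels. Pias4 stood at 2.98 and 3.59 FPKM in non-injection embryos, 862 and 611 in PIASy-Mut embryos and 610 and 579 in PIASy-WT embryos. Of the two-cell embryo markers, 7 of 8 were in the table and all 7 were detected, with a summed level of 1791 to 1963 CPM in non-injection embryos, 1996 to 2089 in PIASy-Mut embryos and 752 to 1072 in PIASy-WT embryos. The 8 oocyte and maternal markers summed to 7082 to 7628, 6895 to 7588 and 8530 to 8782 CPM in the same order. Of this, Bmp15 alone made up 1474 and 1410, 1004 and 2278, and 3926 and 4523 CPM. The 8 cumulus cell markers summed to 12.2 to 12.8 CPM in PIASy-WT and 18.4 to 19.4 CPM in the other 4 libraries, and the defining Amh, Inha, Inhba and Foxl2 were at 0 in all 6. The sums of all 3 lists thus moved along with the PIASy-WT group, though not every gene did. The oocyte and maternal sum rose by less than Bmp15 alone, so its direction rests on that gene. By CPM, the PIASy-WT libraries were lowest for 4 of the 7 embryo markers and overlapped the others for the remaining 3. Of the oocyte markers, 2 were highest in PIASy-WT, Bmp15 and Oog1, 3 were lowest, Zp3, Dppa3 and Padi6, and 3 overlapped. The part of these markers in the results was not tested.

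As background, RNA polymerase I transcribes the large ribosomal RNAs in the nucleolus, RNA polymerase II the messenger RNAs, and RNA polymerase III the transfer RNAs, 5S ribosomal RNA and other small RNAs. Each enzyme has its own large catalytic subunits and shares several small ones with the others. General transcription factors place the enzyme at its start site: TFIID, made of TBP and TAFs, recognises core promoters with TFIIA and TFIIB, TFIIF and TFIIE escort RNA polymerase II, TFIIH opens the DNA, and TFIIIC binds inside transfer RNA genes. Oocytes carry their own versions of several of these proteins, among them TBPL2, and embryos have to replace the maternal supply once the zygotic genome is active.

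For most of these genes the log2 fold change of PIASy-WT was negative against each of the other groups. Only 13 and 11 of them passed the test described next as lower. Both PIASy-WT libraries lay below all 4 others for 42 of the 74 members that passed the filter on low values, against 24.4% of all 16100 genes tested. Both lay above all others for 7 members, against 19.9% of all genes. The median log2 fold change of the members was -0.81 for PIASy-WT against non-injection and -0.85 against PIASy-Mut, where the medians over all genes tested were 0.01 and -0.03. Without PIASy-Mut replicate 1 the members' median against PIASy-Mut was -0.54. With all libraries the fold change was negative for 57 and 56 of the 74 members, and for 7911 and 8255 of all 16100 genes tested. The members' counts were 52 and 49 under quantile normalisation, and 55 and 48 with median centring. A fold change is a difference of log2(FPKM + 1), which understates the change of genes at low levels.

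By limma with Benjamini-Hochberg adjustment over all 16100 genes, 13 of the 74 members had lower levels in PIASy-WT than in non-injection embryos at an adjusted p of at most 0.05, against 5.76% of all genes and 6.72% of protein-coding genes. None was higher, against 1.03% of all genes. At an unadjusted p under 0.05, 37 members were lower (17.6% of all genes) and 3 higher (10.6%). Against PIASy-Mut, 11 members were lower (6.01% of all genes and 6.91% of protein-coding genes) and 1 was higher (0.82% of all genes). At an unadjusted p under 0.05, 34 were lower (18.2%) and 3 higher (9.46%) in that comparison. With the added requirement that the log2 fold change be 2 or more in size, 8 members were lower against non-injection (3.81% of all genes) and 7 against PIASy-Mut (4.06%). These comparisons share the PIASy-WT libraries. The genes lower in both were Gtf2f1, Gtf2f2, Gtf3c6, Polr1c, Polr1e, Polr2i, Polr2k, Polr3g and Taf1b. Leaving out either non-injection library or either PIASy-WT library brought the count of members lower than in non-injection to 0, and leaving out either PIASy-Mut library brought it to 28. The count against PIASy-Mut was 31 without PIASy-Mut replicate 2 and 0 without any other library.

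**Figure D1:**
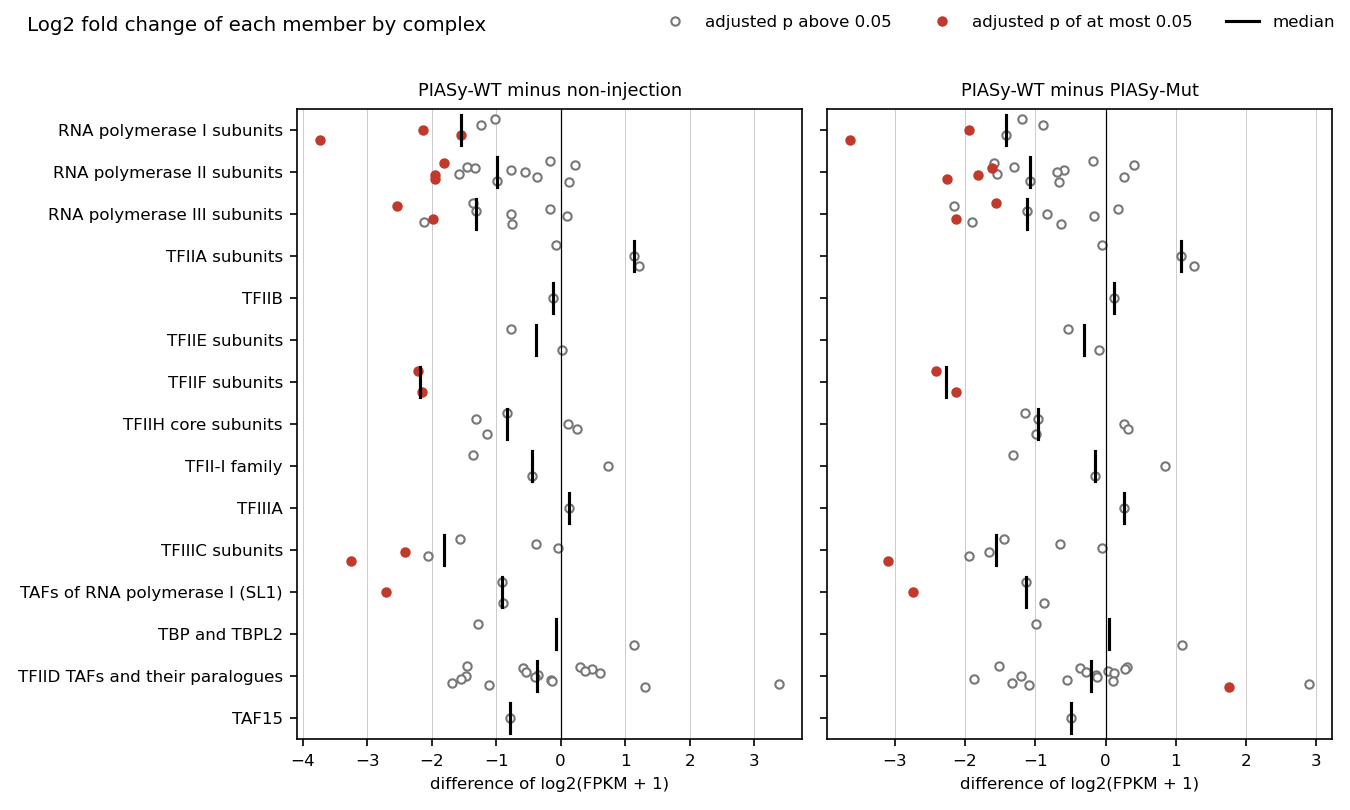
Log2 fold change of the members by complex, with PIASy-WT against non-injection at left and against PIASy-Mut at right, in log2(FPKM + 1). Each circle is 1 gene, filled where its adjusted p was at most 0.05, the vertical bar is the median of the complex, and Taf9 is not drawn because its PIASy-WT libraries were at the limit of detection. Medians lie left of 0 for the 3 polymerases, TFIIF, TFIIH and TFIIIC, and right of 0 for TFIIA.

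No difference between PIASy-Mut and non-injection passed for these genes. No member was called in either direction by limma (0% of all genes lower and 0.00621% higher, which is Pias4 itself), none had an unadjusted p under 0.05, where 2.09% of all genes were lower and 2.37% higher, and none passed by voom on recovered fragments. The median difference was -0.08. The PIASy-Mut libraries were far apart from each other, however: 56 of 74 members (75.7%) were higher in replicate 1 than in replicate 2, with a median log2 difference of 0.52, whereas 48.0% of all genes were. In non-injection 44.6% of the members were higher in replicate 1, against 42.1% of all genes, and in PIASy-WT 62.2%, against 46.1% of all genes. This spread enters the errors of all comparisons, which share 1 estimate of it.

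The upstream sequences of 5 members are shown, to set 3 genes that were lower in both comparisons beside the paralogues Taf7l and Taf9b, whose PIASy-WT libraries were the highest. Each is the 250 bases before the RefSeq start site on GRCm38.p6, the mm10 assembly, written 5′ to 3′ on the strand of the gene. Capitals mark the motifs searched on both strands. The TATA box was searched as TATAAA and the GC box as GGGCGG. The ETS core was searched as CCGGAAG, the E-box as CACGTG, and the remaining motif was the CCAAT box. Where motifs overlap or adjoin, the capitals run together. Polr1c lies at chr17:46248046-46248295, Polr3g at chr13:81711014-81711263 and Gtf2f1 at chr17:57011289-57011538. Taf7l lies at chrX:134476491-134476740 and Taf9b at chrX:106221159-106221408. All 5 are on the minus strand.
Polr1c: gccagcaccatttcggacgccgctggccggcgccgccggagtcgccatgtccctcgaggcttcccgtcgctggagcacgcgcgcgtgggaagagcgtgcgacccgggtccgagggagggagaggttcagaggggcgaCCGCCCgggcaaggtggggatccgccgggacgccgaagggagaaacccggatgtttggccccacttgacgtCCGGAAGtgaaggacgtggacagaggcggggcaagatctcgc
Polr3g: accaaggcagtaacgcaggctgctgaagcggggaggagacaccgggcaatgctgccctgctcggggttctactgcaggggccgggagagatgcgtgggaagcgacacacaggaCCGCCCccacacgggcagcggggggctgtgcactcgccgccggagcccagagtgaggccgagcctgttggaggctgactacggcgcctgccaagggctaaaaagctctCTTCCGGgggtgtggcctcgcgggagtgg
Gtf2f1: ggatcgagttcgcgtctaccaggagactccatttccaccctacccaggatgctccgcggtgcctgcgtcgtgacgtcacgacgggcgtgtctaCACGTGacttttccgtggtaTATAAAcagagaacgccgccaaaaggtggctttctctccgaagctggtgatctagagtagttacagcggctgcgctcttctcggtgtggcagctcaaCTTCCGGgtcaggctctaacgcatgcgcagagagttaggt
Taf7l: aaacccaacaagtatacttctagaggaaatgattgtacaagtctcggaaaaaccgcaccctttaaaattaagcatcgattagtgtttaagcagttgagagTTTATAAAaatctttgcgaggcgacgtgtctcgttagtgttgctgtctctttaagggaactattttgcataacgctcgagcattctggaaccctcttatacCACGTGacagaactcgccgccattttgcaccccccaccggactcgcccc
Taf9b: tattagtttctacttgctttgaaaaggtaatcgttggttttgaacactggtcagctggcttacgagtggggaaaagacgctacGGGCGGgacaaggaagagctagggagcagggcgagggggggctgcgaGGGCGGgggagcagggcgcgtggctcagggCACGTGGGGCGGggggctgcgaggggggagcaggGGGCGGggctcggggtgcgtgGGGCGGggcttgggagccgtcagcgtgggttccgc
The 3 lower genes were picked with the motif matches in view, and all hold the ETS core. It stood 42 bases before the start in Polr1c, 29 in Polr3g and 40 in Gtf2f1, and it was in neither Taf7l nor Taf9b. Of the other genes that were lower in both comparisons, Gtf3c6 also held it, Gtf2f2, Polr1e, Polr2i and Taf1b did not, and Polr2k had no window. Taf9b held 5 GC boxes, and Taf7l held TATAAA on both strands in overlapping letters. Windows were found for 66 of the 76 members, and among the others were Gtf2e2, Polr2d, Polr2g, Polr2k, Polr3a, Polr3d, Taf2, Taf4b and Taf7. The ETS core was in 19 of the 66 windows (28.8%), against 6.91% of all 32851 RefSeq windows of this length. The GC box was in 39 (59.1% against 32.7%), the E-box in 13 (19.7% against 6.02%), CCAAT in 19 (28.8% against 33.8%) and TATAAA in 8 (12.1% against 12.4%). The members' windows were also richer in G and C, with a median of 60.0% against 52.4%. Among the 13 windows of genes that were lower in either comparison, 5 held the ETS core, 7 the GC box, 2 the E-box, 2 TATAAA and 1 CCAAT. A match describes letters only and does not show that a factor binds there.

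All 5 genes named Polr1 for RNA polymerase I had both PIASy-WT libraries below the other 4 (24.4% of all genes), and the median log2 fold change was -1.54 relative to non-injection and -1.42 relative to PIASy-Mut. Of the 5, 3 were lower against non-injection (5.76% of all genes) and 2 against PIASy-Mut (6.01%) by limma. Summed over the 5 genes, the level was 271 and 285 FPKM in non-injection embryos, 321 and 195 in PIASy-Mut embryos and 79.6 and 61.3 in PIASy-WT embryos.

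Polr1e, a subunit that RNA polymerase I alone carries, had the fold change of largest size among all members on the log2(FPKM + 1) scale. With a pseudocount of 0.1, Taf7l had a larger one in both comparisons, 5.28 and 4.62. Polr1e stood at 41.4 and 44.0 FPKM in non-injection embryos, 61.9 and 25.6 in PIASy-Mut embryos and 0.774 and 5.13 in PIASy-WT embryos, the last from 4 and 23 fragments. The PIASy-WT libraries were both far below the rest but differed from each other several-fold. The log2 fold change was -3.73 (SE 0.67, adjusted p = 0.0359) relative to non-injection and -3.63 (SE 0.67, adjusted p = 0.0369) relative to PIASy-Mut.

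Polr1c and Polr1d are the paired subunits that RNA polymerases I and III share. Polr1c stood at 84.0 and 121 FPKM in non-injection embryos, 111 and 69.5 in PIASy-Mut embryos and 25.2 and 19.5 in PIASy-WT embryos. Its log2 fold change was -2.14 (SE 0.34, adjusted p = 0.0317) relative to non-injection and -1.94 (SE 0.34, adjusted p = 0.0339) relative to PIASy-Mut. Polr1d was the most abundant of the 5 by its mean, and its level was 140 and 112 FPKM in non-injection embryos, 140 and 95.4 in PIASy-Mut embryos and 51.8 and 34.9 in PIASy-WT embryos. The PIASy-WT libraries lay below all others for both genes. The fold change of Polr1d was -1.54 (SE 0.32) and passed against non-injection (adjusted p = 0.0465), and against PIASy-Mut it was -1.42 (SE 0.32, adjusted p = 0.0549), which just missed the threshold.

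The catalytic subunits Polr1a and Polr1b were at much lower levels. Polr1a, the largest subunit, had 2.16 and 1.94 FPKM in non-injection embryos, 2.86 and 2.03 in PIASy-Mut embryos and 0.572 and 0.440 in PIASy-WT embryos, from 6 to 35 fragments per library. Polr1b, the other large subunit, had 3.41 and 5.79, 4.51 and 2.37, and 1.30 and 1.35 FPKM in the same order. Neither passed the test: the fold change of Polr1a was -1.02 (SE 0.38, adjusted p = 0.151) against non-injection and that of Polr1b -1.24 (SE 0.44, adjusted p = 0.135). Both had PIASy-WT libraries below all others, as the plot of polymerase subunits by library shows.

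**Figure D2:**
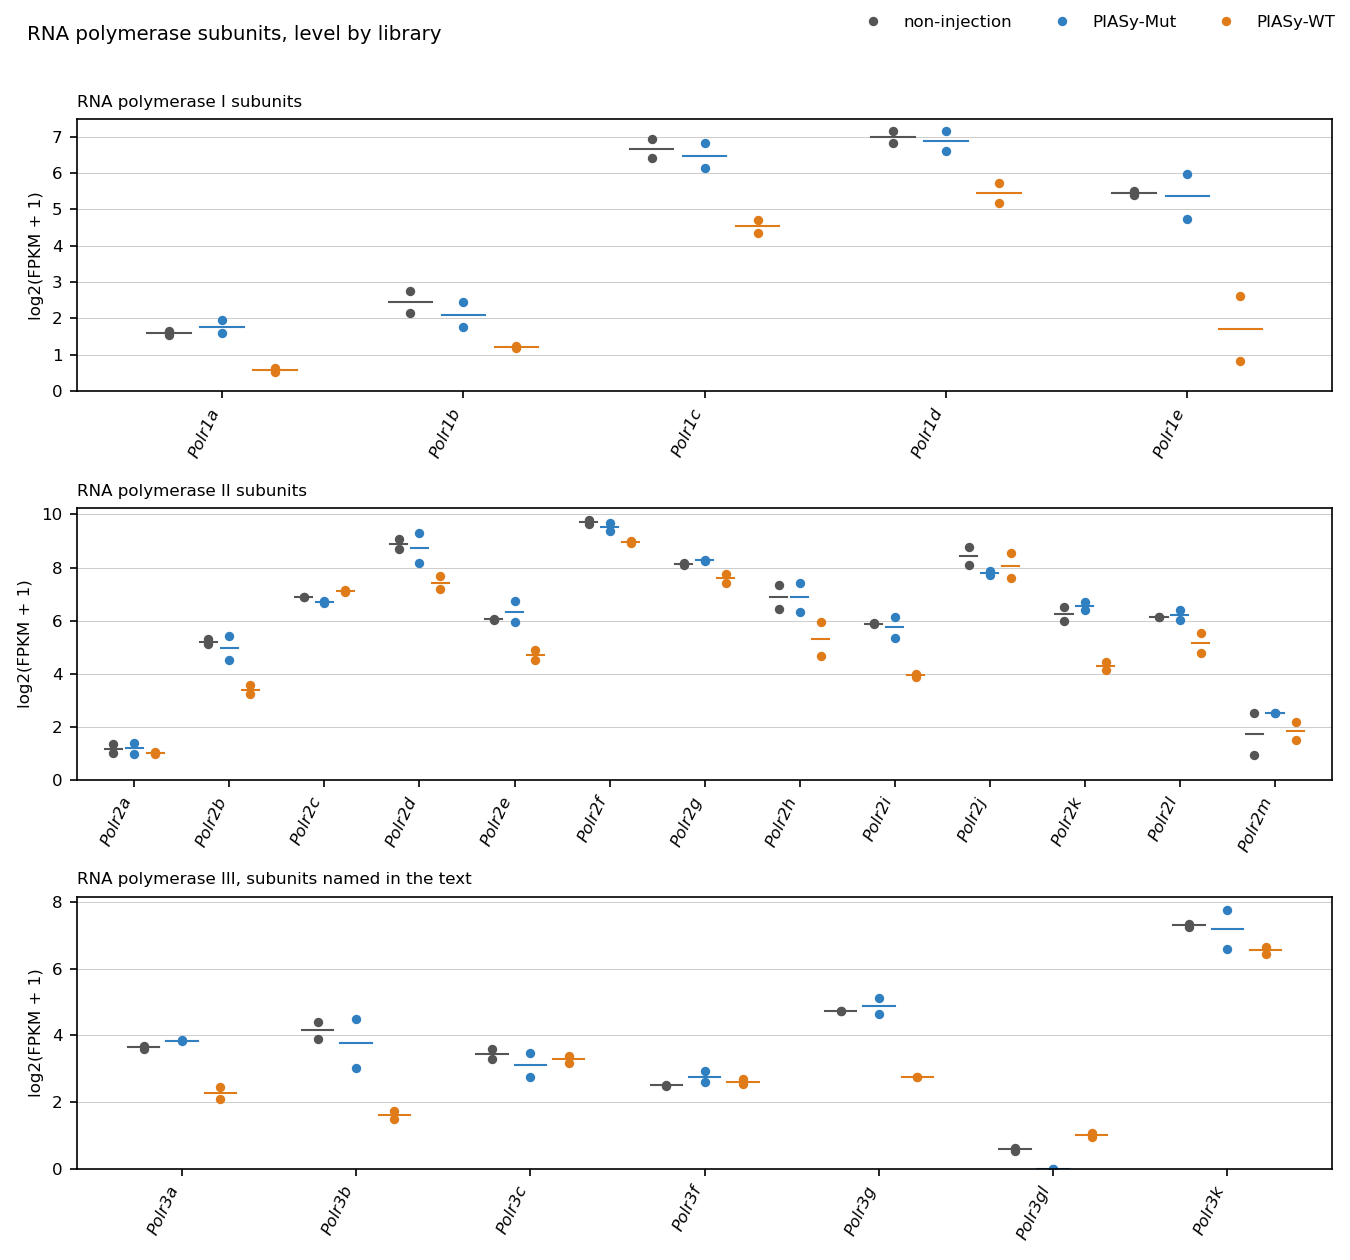
Levels of the polymerase subunits as log2(FPKM + 1), with RNA polymerase I, II and III from top to bottom and, of RNA polymerase III, the 7 subunits described in the text. Each dot is 1 library, the line is the mean of the 2 libraries of a group, and grey, blue and orange stand for non-injection, PIASy-Mut and PIASy-WT. Orange dots lie below all others for all 5 subunits of RNA polymerase I and for 9 of 13 of RNA polymerase II. Of the 7 subunits drawn for RNA polymerase III, they do so for Polr3a, Polr3b and Polr3g. They lie above all others for Polr2c, and for Polr3gl, whose libraries were all under the limit of detection.

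In RNA polymerase II the PIASy-WT libraries were the lowest for most but not all subunits, though few of these differences passed. In 9 of 13 both PIASy-WT libraries were below the rest (24.4% of all genes), and in 1, Polr2c, both were above (19.9%). The median log2 fold change was -0.99 relative to non-injection and -1.07 relative to PIASy-Mut, and 3 subunits were lower in each comparison (5.76% and 6.01% of all genes), Polr2b, Polr2i and Polr2k against non-injection and Polr2e, Polr2i and Polr2k against PIASy-Mut.

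Polr2b is the second of the large catalytic subunits. Its level was 38.5 and 33.5 FPKM in non-injection embryos, 42.1 and 22.1 in PIASy-Mut embryos and 10.8 and 8.39 in PIASy-WT embryos, and the PIASy-WT libraries did not overlap with the rest. The fold change was -1.81 (SE 0.37, adjusted p = 0.0447) relative to non-injection and -1.58 (SE 0.37, adjusted p = 0.0577) relative to PIASy-Mut. The partner Polr2a, the largest subunit that bears the C-terminal repeats, was barely detected, with 1.56 and 1.00 FPKM in non-injection embryos, 1.65 and 0.974 in PIASy-Mut embryos and 1.07 and 0.985 in PIASy-WT embryos. These come from 6 to 15 fragments per library, the groups overlapped, and a difference was not detectable at this depth.

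Polr2i, the RPB9 subunit that helps start-site choice and proofreading, had 58.7 and 57.6 FPKM in non-injection embryos, 70.3 and 39.8 in PIASy-Mut embryos and 13.7 and 15.1 in PIASy-WT embryos. The fold change was -1.94 (SE 0.33, adjusted p = 0.0328) relative to non-injection and -1.81 (SE 0.33, adjusted p = 0.0348) relative to PIASy-Mut. Of its exonic bases, 26.8% overlap exons of Tbcb on the other strand, and no source says whether counting used the strand. Tbcb itself had 183 and 130, 193 and 85, and 23 and 15 fragments in non-injection, PIASy-Mut and PIASy-WT. Its part in the difference of Polr2i was not tested. Polr2k, a small zinc-binding subunit common to the 3 polymerases, had 62.3 and 89.3 FPKM in non-injection embryos, 104 and 82.7 in PIASy-Mut embryos and 20.6 and 16.7 in PIASy-WT embryos. Its fold change was -1.95 (SE 0.29, adjusted p = 0.0293) relative to non-injection and -2.26 (SE 0.29, adjusted p = 0.0240) relative to PIASy-Mut. Since 21.6% of its 50-base sequences recur in other genes, some of its reads may not have been counted as unique. Both genes had PIASy-WT libraries well under the other 4.

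Polr2e, Polr2f, Polr2h and Polr2l are further subunits common to the 3 enzymes. Polr2e had 64.8 and 65.6 FPKM in non-injection embryos, 107 and 60.2 in PIASy-Mut embryos and 29.1 and 22.2 in PIASy-WT embryos. It passed against PIASy-Mut, with a fold change of -1.62 (SE 0.34, adjusted p = 0.0472), and not against non-injection, at -1.33 (SE 0.34, adjusted p = 0.0695). Polr2f, the most abundant member of all, kept a high level throughout, with 795 and 889, 826 and 672, and 506 and 482 FPKM in non-injection, PIASy-Mut and PIASy-WT. Its fold change was -0.77 (SE 0.24, adjusted p = 0.107) against non-injection. For Polr2h the corresponding value was -1.57 (SE 0.59, adjusted p = 0.147), and for Polr2l -0.99 (SE 0.32, adjusted p = 0.112). Without PIASy-WT replicate 2 these became -0.93 and -0.62. In all 4 the PIASy-WT libraries lay below the rest, including those that did not pass.

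The stalk subunits Polr2d and Polr2g, which bind the nascent RNA as a pair, also had PIASy-WT libraries below the others. Polr2d had 535 and 413 FPKM in non-injection embryos, 628 and 286 in PIASy-Mut embryos and 204 and 145 in PIASy-WT embryos, with a fold change of -1.45 (SE 0.43, adjusted p = 0.0915) against non-injection. Polr2g had 287 and 274, 315 and 303, and 216 and 170 FPKM, with a fold change of -0.55 (SE 0.23, adjusted p = 0.190). The assembly pair Polr2c and Polr2j did not share this direction. Polr2c had 117 and 119 FPKM in non-injection embryos, 99.9 and 107 in PIASy-Mut embryos and 141 and 134 in PIASy-WT embryos, slightly above the other libraries and without passing (fold change 0.22, SE 0.21, adjusted p = 0.539). Part of its exons (18.1%) overlaps Dok4 on the other strand. Polr2j ranged from 192 to 437 FPKM and Polr2m, a protein associated with the enzyme, from 0.907 to 4.80 FPKM, with overlapping groups in both.

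RNA polymerase III had a median log2 fold change of -1.31 relative to non-injection and -1.11 relative to PIASy-Mut over the 9 of its 10 genes that were tested. Without PIASy-Mut replicate 1 the second value was -0.34, and without replicate 2 it was -1.59. For 5 of the 9 genes tested, both PIASy-WT libraries were below all others (24.4% of all genes). Polr3b and Polr3g passed against non-injection, and Polr3a and Polr3g against PIASy-Mut, all with lower levels in PIASy-WT. Polr3g, a subunit of the group of 3 that opens the promoter, is the form used in oocytes, embryos and pluripotent cells. Its level was 25.5 and 25.8 FPKM in non-injection embryos, 34.2 and 23.9 in PIASy-Mut embryos and 5.75 and 5.75 in PIASy-WT embryos. The libraries of PIASy-WT agreed closely and were well below all others, and the fold change was -1.98 (SE 0.29, adjusted p = 0.0292) relative to non-injection and -2.13 (SE 0.29, adjusted p = 0.0240) relative to PIASy-Mut. Its paralogue Polr3gl, the form of differentiated cells, had 0 to 2 fragments in every library, so it was not tested and no fold is given.

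Among the catalytic subunits, Polr3a had 12.0 and 11.1 FPKM in non-injection embryos, 13.6 and 13.2 in PIASy-Mut embryos and 4.53 and 3.28 in PIASy-WT embryos. The fold change was -1.57 (SE 0.30, adjusted p = 0.0395) against PIASy-Mut and -1.36 (SE 0.30, adjusted p = 0.0522) against non-injection. Polr3b had 20.3 and 13.8, 21.5 and 7.19, and 2.29 and 1.82 FPKM in non-injection, PIASy-Mut and PIASy-WT. In both genes the PIASy-WT libraries were the lowest pair. The fold change of Polr3b was -2.54 (SE 0.53, adjusted p = 0.0461) relative to non-injection and -2.16 (SE 0.53, adjusted p = 0.0644) relative to PIASy-Mut, whose libraries lay far apart, and the latter was -1.43 without PIASy-Mut replicate 1.

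No other subunit of RNA polymerase III passed. Polr3k, the RNA-cleavage subunit and the most abundant of the complex, had 162 and 153 FPKM in non-injection embryos, 218 and 96.2 in PIASy-Mut embryos and 86.7 and 100 in PIASy-WT embryos, and its PIASy-WT libraries overlapped with PIASy-Mut replicate 2. The fold change was -0.75 (SE 0.40, adjusted p = 0.272) against non-injection. Polr3c and Polr3f, which stand beside Polr3g in the promoter-opening group, overlapped between groups, with 5.76 to 11.0 FPKM and 4.59 to 6.70 FPKM over the 6 libraries.

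The TFII factors did not share 1 direction. The median log2 fold change against non-injection was -2.18 for TFIIF, -0.84 for TFIIH, -0.37 for TFIIE and 1.14 for TFIIA, while TFIIB stood near 0. The TFIIA value is that of Gtf2a1l, a gene of few fragments, and the median was 0.38 without non-injection replicate 1 and 0.74 without PIASy-WT replicate 2. That of TFIIE was -0.65 without non-injection replicate 1 and -0.10 without replicate 2. Of the 13 factors tested in this set outside the TFII-I family, 2 were lower in each comparison by limma (5.76% and 6.01% of all genes), both of TFIIF, and none was higher (1.03% and 0.82%).

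TFIIF consists of Gtf2f1 and Gtf2f2, which bind RNA polymerase II and bring it to the promoter. Gtf2f1 had 83.3 and 115 FPKM in non-injection embryos, 151 and 84.2 in PIASy-Mut embryos and 27.2 and 15.2 in PIASy-WT embryos. Its fold change was -2.21 (SE 0.42, adjusted p = 0.0395) relative to non-injection and -2.41 (SE 0.42, adjusted p = 0.0329) relative to PIASy-Mut. Gtf2f2 had 171 and 166, 253 and 108, and 40.6 and 33.8 FPKM in non-injection, PIASy-Mut and PIASy-WT. For neither gene did the PIASy-WT libraries overlap with the rest. The fold change of Gtf2f2 was -2.15 (SE 0.42, adjusted p = 0.0408) relative to non-injection and -2.13 (SE 0.42, adjusted p = 0.0409) relative to PIASy-Mut. In no other complex described here did every tested subunit pass in both comparisons.

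TFIIA, which steadies TBP on the DNA, had a higher summed level in PIASy-WT, at 268 and 282 FPKM against 146 and 137 in non-injection and 107 and 179 in PIASy-Mut. Most of this came from Gtf2a2, the small subunit, with 99.1 and 96.4 FPKM in non-injection embryos, 65.1 and 136 in PIASy-Mut embryos and 216 and 239 in PIASy-WT embryos. The PIASy-WT libraries were above all others, and the fold change of 1.21 (SE 0.37, adjusted p = 0.0999) relative to non-injection and 1.26 (SE 0.37, adjusted p = 0.0931) relative to PIASy-Mut did not pass, the latter being 0.74 without PIASy-Mut replicate 1. The large subunit Gtf2a1 had 44.8 and 33.6, 39.4 and 36.4, and 45.5 and 29.6 FPKM, with overlapping groups. Its germ cell paralogue Gtf2a1l, from 4 to 24 fragments per library, had 1.81 and 7.09, 2.39 and 6.37, and 6.98 and 12.9 FPKM and overlapped as well.

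Gtf2b, which encodes TFIIB, the factor that links TBP to the polymerase, had 73.8 and 60.9 FPKM in non-injection embryos, 54.9 and 58.5 in PIASy-Mut embryos and 66.9 and 56.7 in PIASy-WT embryos, so the groups overlapped. Gtf2e2, the smaller TFIIE subunit, likewise overlapped, at 36.5 and 49.0, 47.4 and 44.5, and 46.9 and 39.3 FPKM. Gtf2e1, the larger subunit, had 3.05 and 4.56 FPKM in PIASy-WT, below 5.29 to 9.29 FPKM elsewhere, without passing. In TFIIH, Gtf2h1 had 57.0 and 80.0 FPKM in non-injection embryos, 98.7 and 71.5 in PIASy-Mut embryos and 39.2 and 35.6 in PIASy-WT embryos. Its PIASy-WT libraries were below the rest, and its fold change was -0.84 (SE 0.29, adjusted p = 0.129) relative to non-injection and -1.15 (SE 0.29, adjusted p = 0.0682) relative to PIASy-Mut. None of the 5 TFIIH core subunits passed, and for 3 of them, Gtf2h1, Gtf2h2 and Gtf2h5, the PIASy-WT libraries were lowest (24.4% of all genes). The TFII-I family, named for its founding member but made of sequence-specific regulators, was low. Gtf2ird1 had 1.54 and 2.10, 1.40 and 1.81, and 4.17 and 3.21 FPKM, highest in PIASy-WT, and did not pass. Gtf2i stood at 0.296 and 0.341 FPKM in PIASy-WT, from 4 fragments each, below 1.35 to 3.61 FPKM elsewhere.

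**Figure D3:**
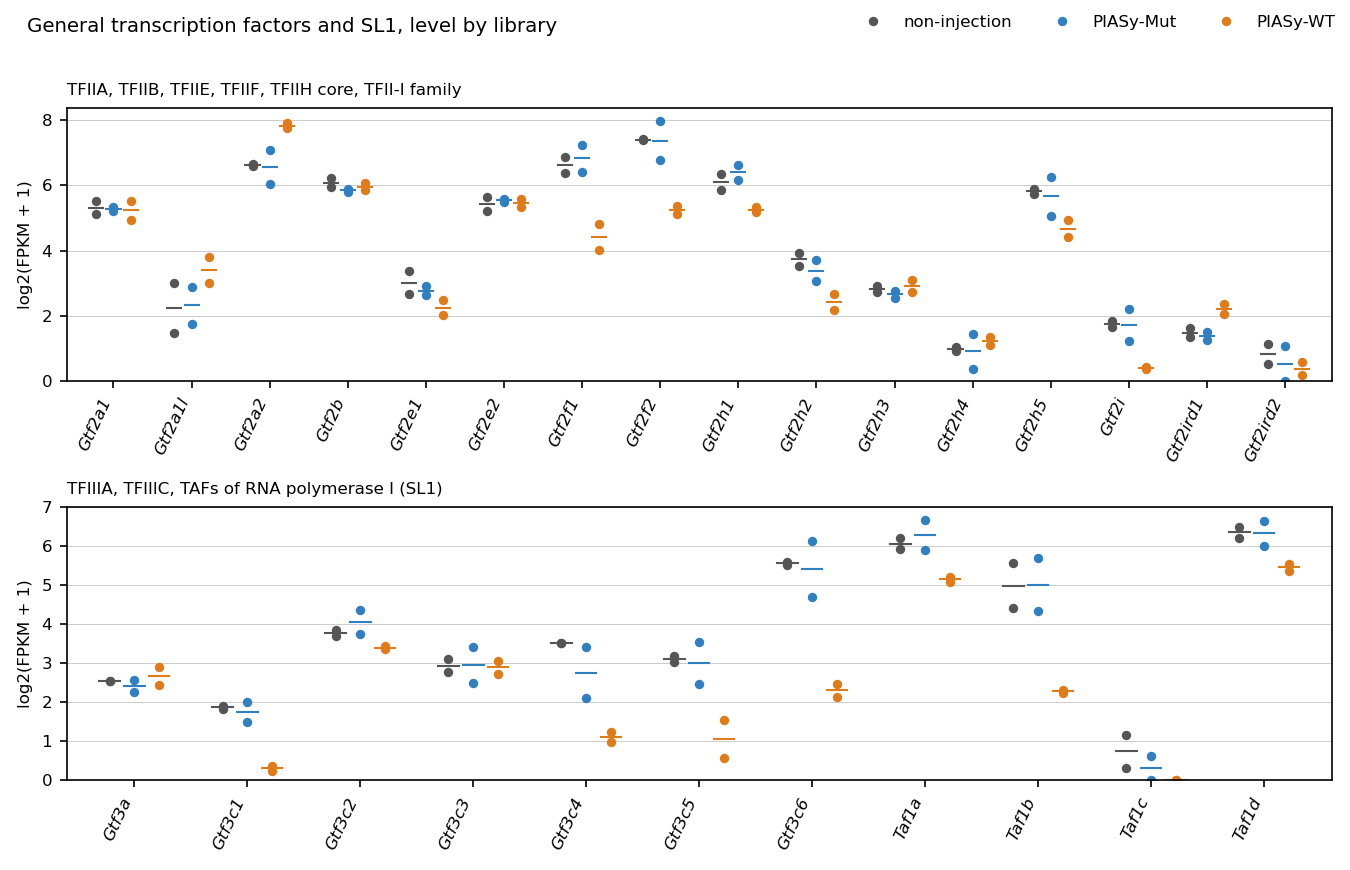
Levels of the TFII factors in the upper panel and of TFIIIA, TFIIIC and the TAFs of RNA polymerase I in the lower panel, as log2(FPKM + 1). Each dot is 1 library, the line is the mean of 2 libraries, and grey, blue and orange stand for non-injection, PIASy-Mut and PIASy-WT. Orange dots lie below all others for Gtf2e1, Gtf2f1, Gtf2f2, Gtf2h1, Gtf2h2, Gtf2h5, Gtf2i, 5 of the 6 TFIIIC subunits, Taf1a, Taf1b and Taf1d, and above all others for Gtf2a2 and Gtf2ird1.

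TFIIIC, which recruits TFIIIB and RNA polymerase III to transfer RNA genes, had a median log2 fold change of -1.81 relative to non-injection and -1.55 relative to PIASy-Mut. Its summed level was 84.1 and 89.3 FPKM in non-injection embryos, 121 and 51.7 in PIASy-Mut embryos and 22.2 and 23.3 in PIASy-WT embryos. For 5 of the 6 subunits the PIASy-WT libraries were below all others (24.4% of all genes). Gtf3c6, the smallest subunit and the most abundant in non-injection and PIASy-Mut embryos, had 44.8 and 47.7, 68.9 and 25.0, and 4.58 and 3.42 FPKM in non-injection, PIASy-Mut and PIASy-WT. The fold change was -3.25 (SE 0.48, adjusted p = 0.0292) relative to non-injection and -3.10 (SE 0.48, adjusted p = 0.0292) relative to PIASy-Mut.

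Gtf3c4 had 10.4 and 10.5 FPKM in non-injection embryos, 9.65 and 3.33 in PIASy-Mut embryos and 1.36 and 0.963 in PIASy-WT embryos, from 13 and 8 fragments. It was lower than in non-injection, with a fold change of -2.42 (SE 0.50, adjusted p = 0.0451), and did not pass against PIASy-Mut (-1.66, SE 0.50, adjusted p = 0.0958, and -1.01 without PIASy-Mut replicate 1). Gtf3c1 and Gtf3c5 had similar differences at fewer fragments. The fold change against non-injection was -1.56 (SE 0.40, adjusted p = 0.0697) for Gtf3c1 and -2.06 (SE 0.53, adjusted p = 0.0695) for Gtf3c5, and PIASy-WT held 3 and 4 fragments of Gtf3c1 and 3 and 10 of Gtf3c5. Gtf3c2 differed less, with 12.1 and 13.6, 19.5 and 12.4, and 9.89 and 9.28 FPKM in non-injection, PIASy-Mut and PIASy-WT, and did not pass. Of its exonic bases, 38.9% overlap Gm29609 on the same strand. Gtf3c3 was the only subunit with overlapping groups, at 4.66 to 9.64 FPKM over the 6 libraries. Gtf3a, which encodes the 5S-specific factor TFIIIA, also overlapped, at 3.80 to 6.51 FPKM, and 59.1% of its exonic bases overlap Mtif3 on the other strand.

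The TAFs of RNA polymerase I form the SL1 factor with TBP at the ribosomal RNA promoter. Taf1b, the TFIIB-like subunit, had 46.9 and 20.2 FPKM in non-injection embryos, 51.0 and 19.2 in PIASy-Mut embryos and 3.74 and 3.98 in PIASy-WT embryos. The spread within the non-injection and PIASy-Mut pairs was wide, and both PIASy-WT libraries were still far below. The fold change was -2.72 (SE 0.57, adjusted p = 0.0469) relative to non-injection and -2.74 (SE 0.57, adjusted p = 0.0472) relative to PIASy-Mut. Taf1d, the most abundant of the set by its mean, had 89.0 and 73.8, 99.8 and 63.7, and 45.6 and 40.5 FPKM, with a fold change of -0.90 (SE 0.30, adjusted p = 0.116) against non-injection. For Taf1a it was -0.91 (SE 0.33, adjusted p = 0.134). Taf1c had at most 6 fragments in any library and 0 in both PIASy-WT libraries, and it was not tested.

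TFIID showed no common direction. Over 18 TAFs and paralogues the median log2 fold change was -0.37 relative to non-injection and -0.21 relative to PIASy-Mut, which became 0.10 under quantile normalisation, -0.09 and -0.46 without PIASy-Mut replicate 1 and 2, and -0.44 without PIASy-WT replicate 2. The summed level of 517 and 488, 526 and 464, and 549 and 564 FPKM in non-injection, PIASy-Mut and PIASy-WT was close to even. The PIASy-WT sums rest in part on the high level of Taf9b, given below. The PIASy-WT libraries were below all others for 7 genes (24.4% of all genes) and above all others for 3 (19.9%). With Taf9, described next, put at its bound, the medians were the same. No gene passed against non-injection, and Taf9b passed as higher against PIASy-Mut.

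Within this set, several genes with a near relative had opposite directions to that relative. Taf9b had 74.1 and 62.7 FPKM in non-injection embryos, 36.8 and 66.8 in PIASy-Mut embryos and 171 and 169 in PIASy-WT embryos. It was above all other libraries, and its fold change was 1.76 (SE 0.33, adjusted p = 0.0376) against PIASy-Mut and 1.31 (SE 0.33, adjusted p = 0.0673) against non-injection. Taf9, the histone-fold TAF that it resembles, had 4.50 and 1.67, 4.57 and 3.25, and 0.356 and 0 FPKM, from 1 and 0 fragments in PIASy-WT. With 3 fragments per library as the floor, its PIASy-WT level was at least 2.68-fold lower against non-injection and at least 3.40-fold lower against PIASy-Mut. Without non-injection replicate 1 the first bound was 1.45. Its counts are uncertain, because 73.8% of its exonic bases overlap exons of Ak6 on the same strand. The share of Taf9b in the pair was already 94.3% and 97.4% in non-injection and 89.0% and 95.4% in PIASy-Mut, and it was 99.8% and 100% in PIASy-WT.

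Taf7 and Taf7l differed more in share. Taf7, which holds back the acetyltransferase activity of TAF1, had 79.3 and 69.9 FPKM in non-injection embryos, 85.1 and 39.6 in PIASy-Mut embryos and 19.7 and 25.8 in PIASy-WT embryos. Its fold change was -1.68 (SE 0.40, adjusted p = 0.0600) relative to non-injection and -1.33 (SE 0.40, adjusted p = 0.0965) relative to PIASy-Mut. Taf7l, the germ cell paralogue, had 0 and 1.58, 0 and 4.09, and 16.5 and 15.1 FPKM, from 0 and 4, 0 and 8, and 49 and 39 fragments. Its PIASy-WT libraries were above all others and its fold change was 3.39 (SE 0.85, adjusted p = 0.0671) relative to non-injection and 2.89 (SE 0.85, adjusted p = 0.0933) relative to PIASy-Mut, so neither gene passed. Without PIASy-Mut replicate 1, the value against PIASy-Mut was 1.72 for Taf7l and -0.79 for Taf7. As a share of the pair, Taf7l was 0 and 2.20% in non-injection embryos, 0 and 9.36% in PIASy-Mut embryos and 45.6% and 36.9% in PIASy-WT embryos.

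Tbp and Tbpl2 had the same arrangement. Tbp, the TATA-binding protein used by all 3 polymerases, had 15.2 and 14.1 FPKM in non-injection embryos, 17.9 and 7.62 in PIASy-Mut embryos and 6.31 and 4.67 in PIASy-WT embryos, with the PIASy-WT libraries lowest. Tbpl2, the TBP of growing oocytes, had 10.6 and 10.3, 4.92 and 22.5, and 23.0 and 25.2 FPKM, with the PIASy-WT libraries highest but only just above PIASy-Mut replicate 2. Neither passed: the fold change against non-injection was -1.28 (SE 0.44, adjusted p = 0.123) for Tbp and 1.13 (SE 0.62, adjusted p = 0.287) for Tbpl2. The share of Tbpl2 in the pair was 41.1% and 42.1% in non-injection embryos, 21.6% and 74.7% in PIASy-Mut embryos and 78.5% and 84.4% in PIASy-WT embryos. Part of the Tbp exons (19.3%) overlaps Pdcd2 on the other strand.

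The remaining pairs did not follow that pattern. Taf4b, an ovary-enriched paralogue, had the lower levels in PIASy-WT, with 32.6 and 27.1, 35.9 and 16.5, and 9.82 and 10.3 FPKM and a fold change of -1.48 (SE 0.40, adjusted p = 0.0778) against non-injection. Taf4 had 14.9 and 14.5 FPKM in PIASy-WT, slightly below the 15.5 FPKM of the lowest other library. Taf5l, which belongs to the SAGA coactivator, had 3.49 and 7.43, 11.4 and 3.86, and 1.27 and 0.975 FPKM and a fold change of -1.54 (SE 0.58, adjusted p = 0.148) against non-injection, while Taf5 overlapped between groups at 27.1 to 42.1 FPKM. Taf6 and Taf6l overlapped too, at 3.71 to 7.58 and 2.05 to 5.47 FPKM. No difference in these pairs passed the test in either comparison.

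Of the other TFIID subunits, Taf1, the largest, had 8.31 and 8.78 FPKM in non-injection embryos, 13.6 and 5.76 in PIASy-Mut embryos and 2.73 and 2.24 in PIASy-WT embryos. Its fold change was -1.46 (SE 0.44, adjusted p = 0.0987) relative to non-injection and -1.51 (SE 0.44, adjusted p = 0.0927) relative to PIASy-Mut, the latter being -0.96 without PIASy-Mut replicate 1. Taf8 had a fold change of -1.11 (SE 0.31, adjusted p = 0.0839) against non-injection, and its PIASy-WT libraries were also lowest. The histone-fold and scaffold subunits Taf3, Taf10, Taf11, Taf12 and Taf13 ranged from 31.0 to 84.7 FPKM with no difference that passed. Taf15, an RNA-binding protein of another family that copurifies with TFIID, had 4.02 and 5.76, 2.99 and 4.72, and 3.10 and 1.79 FPKM and overlapped.

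**Figure D4:**
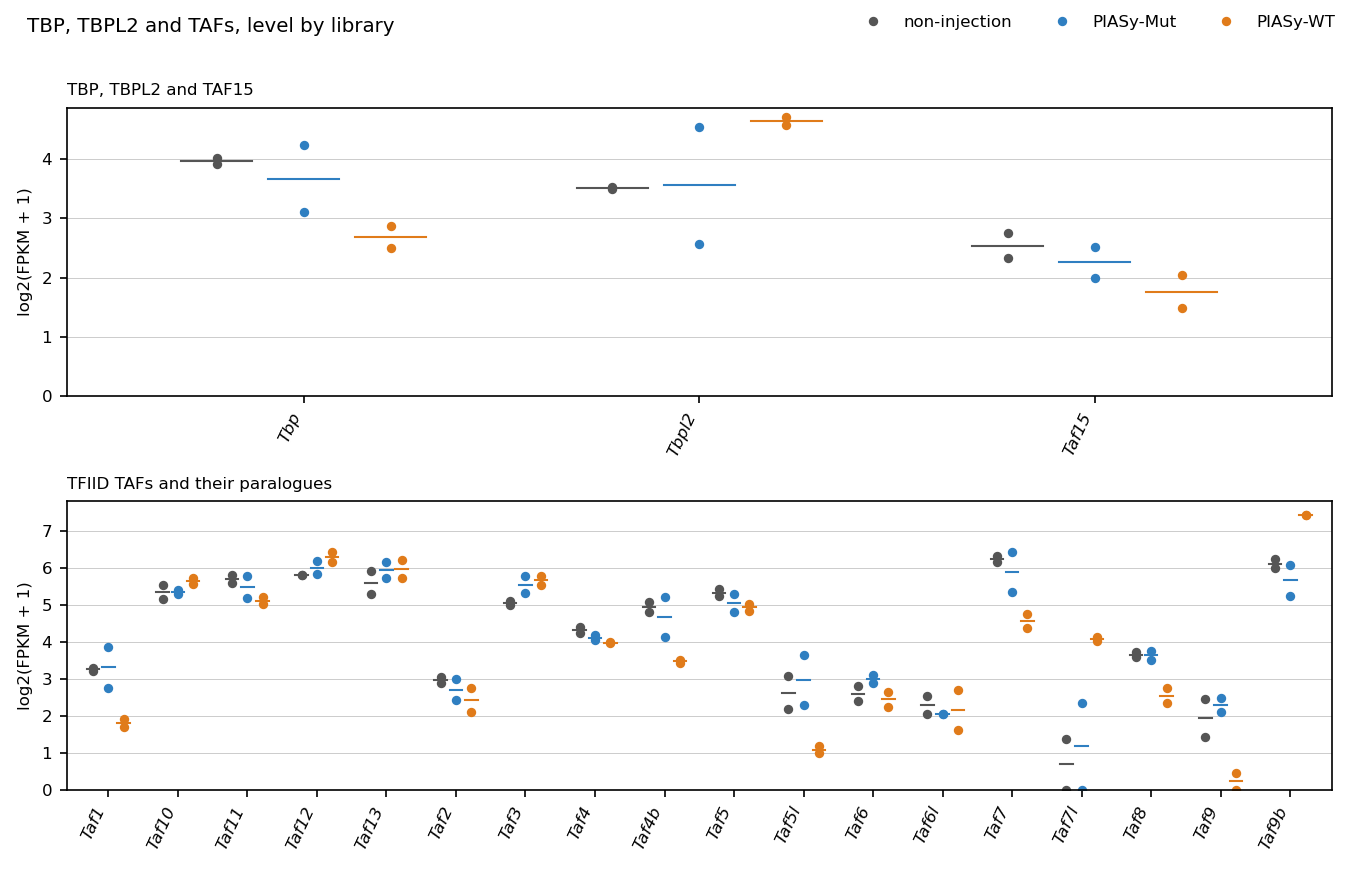
Levels of TBP, TBPL2 and TAF15 in the upper panel and of the TFIID TAFs and their paralogues in the lower panel, as log2(FPKM + 1). Each dot is 1 library, the line is the mean of 2 libraries, and grey, blue and orange stand for non-injection, PIASy-Mut and PIASy-WT. Orange dots lie above all others for Tbpl2, Taf7l, Taf9b and Taf10, and below all others for Tbp and for 7 TAFs that include Taf7 and Taf9.

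Genes outside these names that belong to the same machinery were set beside them. Of 83 such genes with measured levels, 80 were tested, and by limma 19 were lower against non-injection (5.76% of all genes), 19 against PIASy-Mut (6.01%) and none was higher in either comparison (1.03% and 0.82% of all genes). The genes of these lists that are named were chosen after their values were seen. Among 6 further RNA polymerase I subunits and factors, 3 were lower in both comparisons: Znrd1, Cd3eap and Ttf1. Znrd1, which encodes a small subunit of the enzyme, had 243 and 248 FPKM in non-injection embryos, 401 and 154 in PIASy-Mut embryos and 57.1 and 45.7 in PIASy-WT embryos, with a fold change of -2.25 (SE 0.45, adjusted p = 0.0442) against non-injection. Ubtf, the upstream binding factor of ribosomal DNA, had 7.61 and 7.29, 7.39 and 4.55, and 1.96 and 1.20 FPKM and did not pass (-1.73, SE 0.39, adjusted p = 0.0533). Twistnb, which encodes a further subunit of the enzyme, overlapped between groups at 5.79 to 11.2 FPKM, unlike the genes named Polr1. Rrn3, which joins the enzyme to SL1, overlapped between groups at 18.0 to 22.7 FPKM.

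In SNAPc, the complex that starts small nuclear RNA genes for RNA polymerases II and III, 3 of 5 genes were lower in each comparison (5.76% and 6.01% of all genes). Snapc3 had 69.2 and 39.0 FPKM in non-injection embryos, 59.5 and 26.3 in PIASy-Mut embryos and 7.92 and 8.75 in PIASy-WT embryos, with a fold change of -2.51 (SE 0.47, adjusted p = 0.0383) against non-injection. Snapc1 and Snapc5 passed in both comparisons, and Snapc2 passed against PIASy-Mut. Of the TFIIH subunits with other names, Cdk7, the kinase of the C-terminal repeats, had a fold change of -1.09 (SE 0.40, adjusted p = 0.141, and -0.62 without PIASy-WT replicate 2) and the helicase Ercc3 had -1.14 (SE 0.31, adjusted p = 0.0800) against non-injection, so neither passed. TFIIIB, which completes the RNA polymerase III start complex with TBP, had no gene that passed. Brf1, at 0.670 to 3.36 FPKM, and Brf2, at 5.15 to 24.1 FPKM, had their PIASy-WT libraries lowest, and Bdp1 overlapped at 2.69 to 5.26 FPKM. Tbpl1, a more distant TBP relative, overlapped at 26.7 to 47.6 FPKM. Polrmt, the mitochondrial RNA polymerase, had 1 and 2 fragments in PIASy-WT and 3 to 8 elsewhere, too few for a difference to be read.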

How the data were processed

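RNA-seq of 6 libraries of two-cell embryos was analysed, 2 each of non-injection, PIASy-Mut and PIASy-WT, grouped by their labels. The authors amplified cDNA with the SMART-Seq v4 kit (11 cycles), made Nextera XT libraries (13 cycles), trimmed reads with Trim Galore, aligned them to mm10 with STAR and assigned unique reads to genes with featureCounts. The annotation release and the strand setting are not given in the sources used here. The authors deposited 1 table of FPKM values. Spike-in RNA was added, and since 0 spike-in entries are in the table, a level is a share of its library.

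Dividing each FPKM value, times the gene's length, by what 1 fragment is worth gave whole numbers (within 0.001) for 100% of values above 0, which gave the depth of each library. Counting error at this depth limits genes of few fragments. The comparisons were made with limma 3.58.1 (lmFit and eBayes with a trend, R 4.3.3) on log2(FPKM + 1). The 16100 genes that reached an FPKM of 1 in 2 or more libraries entered 1 fit to all 6 libraries with 3 residual and 3.12 prior degrees of freedom. Benjamini-Hochberg adjustment was applied over all genes tested, and "passed" means an adjusted p of at most 0.05. A count model was not used, since the values are FPKM. An exact permutation test of 2 libraries against 2 cannot give a two-sided p below 0.333.

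The members, gene lists and alternatives were chosen with earlier results of these data known. Members named are those that passed in any comparison, the most abundant member of each complex, the large catalytic subunits, paralogue pairs and members at the limit of detection; others, and the genes that are no members, were added after their values were seen. Exon overlaps were computed from the gene coordinates deposited with the FPKM values, and shared 50-base sequences from GENCODE M21. Promoter windows are from RefSeq. The values of 1 member are not reported here, though it stays in the counts and medians. Python 3.11.15, numpy 2.4.6, pandas 2.3.3 and matplotlib 3.10.9 were used.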

Additional observations from a re-analysis of the deposited data

How the results depend on the processing

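All 120 fold changes computed for genes described by a fold change or a call kept their sign under every alternative run that gave a value, 16 in all. They leave out genes given by their levels only, among which Gtf2b went from -0.12 to 0.16 under quantile normalisation and 0.02 without non-injection replicate 1, and Gtf3a from 0.12 to -0.11 without PIASy-WT replicate 1, all against non-injection. By contrast, the number of members that passed moved widely. The members lower than in non-injection, 13 as reported, numbered 0 to 28 when 1 library was left out, 19 with an FPKM filter of at least 5, 1 without a trend, 29 in a fit to the groups compared only, 7 with median centring, 0 without a filter, 7 with a pseudocount of 0.1 and 31 by voom on recovered fragments with TMM scaling. The members lower than in PIASy-Mut, 11 as reported, numbered 0 to 31 when 1 library was left out, 3 without a trend, 0 in the fit to the groups compared only, 4 with median centring, 2 without a filter, 7 with a pseudocount of 0.1, 3 with quantile normalisation and 30 by voom. Members higher than in non-injection, 0 as reported, numbered 0 to 4 without 1 library, 2 with the filter of 5, 4 with the groups compared only and 3 by voom. Members higher than in PIASy-Mut, 1 as reported, numbered 0 to 4 without 1 library, 0 without a trend, with the groups compared only or without a filter, and 3 by voom. Other genes of the pathway lower than in non-injection, 19 as reported, numbered 0 to 30 without 1 library, 4 without a trend or a filter, 30 with the groups compared only, 11 with median centring and 34 by voom. Those lower than in PIASy-Mut, also 19, numbered 0 to 32, 6 without a trend, 3 without a filter, 0 with the groups compared only, 8 with median centring, 10 with quantile normalisation and 35 by voom. Those higher numbered 0 to 2 and 0 to 3 without 1 library, 2 with the groups compared only and 1 by voom against non-injection, and 1 with the filter of 5 and 3 by voom against PIASy-Mut. The cause of these shifts was not tested. No member passed between PIASy-Mut and non-injection under any alternative.

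Members with both PIASy-WT libraries below all others numbered 42 to 48 without 1 library, which can only add genes, and 36 to 41 under the other scalings and filters; those above numbered 7 to 11 and 6 to 12, with 12 under quantile normalisation. These counts under other settings were added after seeing the data. Quantile normalisation moved the median of all genes from 0.01 to 0.12 and from -0.03 to 0.11, and median centring to 0.12 and 0.15. Quantile normalisation brought the median of RNA polymerase II against PIASy-Mut to -0.71, and those against non-injection to -0.54 for TFIIH, -0.16 for TFIIE and -0.09 for TFIID. By voom TFIIIC had -2.95 and -2.44. Neither the study nor the labels say whether replicate numbers mark pairs. The deviations of same-numbered libraries correlated at 0.004, 0.085 and 0.064, which cannot show whether they shared a collection. With the replicate block, 11 and 10 members were lower, 0 higher than in PIASy-Mut, and 14 and 15 other genes of the pathway lower. Depth limits Polr2a, Polr3gl, Taf1c, Taf9 and Gtf3c1, whose libraries held few fragments.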

Other observations

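Mediator, the coactivator that joins transcription factors to RNA polymerase II, was divided. Of 30 genes listed, 29 were tested, 4 had lower levels in PIASy-WT against non-injection (5.76% of all genes) and 3 against PIASy-Mut (6.01%) by limma, and the median log2 fold change was -0.51 and -0.50. The PIASy-WT libraries were below all others for 15 genes (24.4% of all genes) and above all others for 3 (19.9%). Med29 had 174 and 171 FPKM in non-injection embryos, 272 and 144 in PIASy-Mut embryos and 21.8 and 15.6 in PIASy-WT embryos, with a fold change of -3.16 (SE 0.36, adjusted p = 0.0224) relative to non-injection and -3.35 (SE 0.36, adjusted p = 0.0219) relative to PIASy-Mut. Med30 stood the other way, with 184 and 192, 58.0 and 192, and 561 and 548 FPKM, and did not pass against PIASy-Mut (2.38, SE 0.53, adjusted p = 0.0536, and 1.53 without PIASy-Mut replicate 1) or against non-injection (1.56, SE 0.53, adjusted p = 0.124). The Mediator genes named were chosen after their values were seen.

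Elongation and pausing factors, which act on RNA polymerase II after it leaves the promoter, had a median log2 fold change of -1.24 in both comparisons over 22 tested genes, and 6 and 5 of them were lower by limma, against 5.76% and 6.01% of all genes. Eloa, the large subunit of Elongin, had 52.6 and 51.7 FPKM in non-injection embryos, 56.2 and 40.5 in PIASy-Mut embryos and 13.6 and 12.2 in PIASy-WT embryos, with a fold change of -1.94 (SE 0.27, adjusted p = 0.0273) against non-injection. Nelfe, of the negative elongation factor, had 20.8 and 23.9, 41.1 and 16.0, and 3.63 and 2.51 FPKM, with a fold change of -2.53 (SE 0.47, adjusted p = 0.0384). Of P-TEFb, the kinase Cdk9 and its cyclin Ccnt1 were lower than in non-injection, at -1.77 (SE 0.38, adjusted p = 0.0478) and -1.65 (SE 0.32, adjusted p = 0.0405). Cdk9 did not pass against PIASy-Mut (-1.30, SE 0.38, adjusted p = 0.0907), and the other cyclin, Ccnt2, passed in neither comparison. Supt16 and Tcea1 had PIASy-WT libraries above all others without passing.

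Of the factors that assemble RNA polymerase II in the cytoplasm before its import, 6 genes were tested, and 3 of them were lower against non-injection and 4 against PIASy-Mut (5.76% and 6.01% of all genes). Gpn3, a GTPase of this pathway, had 122 and 90.6 FPKM in non-injection embryos, 145 and 91.0 in PIASy-Mut embryos and 13.8 and 8.33 in PIASy-WT embryos, with a fold change of -3.17 (SE 0.37, adjusted p = 0.0224) against non-injection. Its relative Gpn2 had 27.7 and 40.6, 9.81 and 32.5, and 62.1 and 68.7 FPKM, with the PIASy-WT libraries highest, and did not pass in either comparison. Genes of these 2 lists were named after their values were seen.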
